A study of Mus musculus with 4 samples.

Results

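S100a8, S100a9 and 8 partner genes of neutrophils (Ngp, Csf3r, Lcn2, Ltf, Camp, Mmp8, Cxcr2 and Il1b) were followed in tibialis anterior muscle of dystrophic mice with and without MMP-2. All probe sets with a listed gene as their only symbol were taken. This gave 10 probe sets, 1 for each of the 10 genes, among 34945 probe sets with a single symbol for 18193 genes. The genes were chosen because S100a8 and S100a9 were high in mdx/MMP-2-/- muscle at 3 months, so that difference is a description here and not a finding.

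The arrays were Affymetrix Mouse Genome 430 2.0, with total RNA of tibialis anterior, a muscle of the lower leg. There were 4 groups on the strain C57BL/6J, each with 1 array: mdx at 1 month, mdx/MMP-2-/- at 1 month, mdx at 3 months and mdx/MMP-2-/- at 3 months. The mdx mutation in the dystrophin gene, a model of Duchenne muscular dystrophy, is shared by all 4 groups. The second genotype, here called the null, also lacks matrix metalloproteinase 2 (gene Mmp2), a secreted protease of collagens and basement membrane. No wild-type group and no replicate was analysed here, and the sources used here do not say how many animals gave the RNA of an array. None of the differences below therefore has a test or an error, and "higher" and "lower" compare single arrays.

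Neutrophils are short-lived white blood cells that enter injured muscle early and precede the macrophages that clear dying fibres. They carry antimicrobial proteins in granules made in order during their development in bone marrow: primary, specific and tertiary. S100A8 and S100A9 pair as calprotectin, a calcium- and zinc-binding complex that fills the neutrophil cytosol, is also made by monocytes, and signals through TLR4 and RAGE when released. Dystrophic muscle, whose fibres tear and die repeatedly, draws in both cell types.

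S100a8 and S100a9 are neighbours on mouse chromosome 3, with 0 RefSeq genes between them and 26650 bases between their start sites. The 250 bases before the start of the 4 genes that were at least 2-fold higher in the null at 3 months are shown because the promoters of genes that differ alike can be compared directly. They come from the RefSeq promoter table on build GRCm38.p6, which held all 10 genes. Each runs 5′ to 3′ in the direction of its gene, and capitals mark matches to the motifs named after them.
S100a8 (chr3:90668821-90669070, plus strand): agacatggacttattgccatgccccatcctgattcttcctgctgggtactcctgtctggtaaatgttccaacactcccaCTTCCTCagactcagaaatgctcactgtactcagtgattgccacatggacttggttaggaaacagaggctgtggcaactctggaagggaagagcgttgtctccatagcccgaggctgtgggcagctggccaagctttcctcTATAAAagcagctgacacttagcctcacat
S100a9 (chr3:90695722-90695971, minus strand): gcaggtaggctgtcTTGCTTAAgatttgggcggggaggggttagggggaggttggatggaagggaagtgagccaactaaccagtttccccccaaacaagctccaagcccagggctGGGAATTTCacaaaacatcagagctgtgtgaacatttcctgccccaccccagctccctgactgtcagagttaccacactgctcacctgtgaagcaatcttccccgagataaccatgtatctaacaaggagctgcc
Ngp (chr9:110419558-110419807, plus strand): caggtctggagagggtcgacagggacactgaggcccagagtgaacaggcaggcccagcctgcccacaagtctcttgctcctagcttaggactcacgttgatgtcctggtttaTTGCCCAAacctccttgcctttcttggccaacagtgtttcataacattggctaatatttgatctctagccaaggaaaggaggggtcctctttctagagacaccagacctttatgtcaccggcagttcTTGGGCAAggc
Csf3r (chr4:126024409-126024658, plus strand): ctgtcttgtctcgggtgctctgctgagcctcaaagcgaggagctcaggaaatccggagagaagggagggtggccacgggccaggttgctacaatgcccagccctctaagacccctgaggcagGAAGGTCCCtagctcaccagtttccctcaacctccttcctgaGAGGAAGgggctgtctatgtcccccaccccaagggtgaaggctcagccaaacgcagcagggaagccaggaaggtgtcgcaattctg

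The motifs were searched on both strands as letters, with N for any base: the core TTGCNNAA of C/EBP factors, GAGGAAG of PU.1 and other Ets factors, GGGANNTTC of NF-kB, TGANTCA of AP-1 and the TATA box TATAAA. C/EBP factors and PU.1 direct the granulocyte programme, and NF-kB and AP-1 respond to inflammation. S100a8 held a TATA box from base -30 to -25 before its start and a PU.1/Ets match from -171 to -165. S100a9 held a C/EBP match from -236 to -229, an NF-kB match from -135 to -127 and no TATA box. Ngp held 2 C/EBP matches, from -138 to -131 and from -11 to -4, and Csf3r a PU.1/Ets match from -86 to -80 and an NF-kB match from -128 to -120. The 2 calprotectin genes thus shared none of these motif kinds.

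Over all 10 genes, the C/EBP letters occurred in 5 (S100a9, Ngp, Lcn2, Ltf and Mmp8), PU.1/Ets in 4 (S100a8, Csf3r, Lcn2 and Mmp8), the TATA box in 2 (S100a8 and Il1b), NF-kB in 3 (S100a9, Csf3r and Cxcr2) and AP-1 in 0. Among 32851 promoter windows of the same length, these letters occurred in 9.56%, 10.6%, 12.4%, 3.23% and 6.75%, respectively. No 2 matches overlapped in any of the 10 windows. A match describes letters in the window and shows no binding.

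The deposited signals of the 4 arrays were not on a common scale. Their trimmed means relative to mdx at 1 month were 1.07 for the null at 1 month, 0.99 for mdx at 3 months and 1.34 for the null at 3 months, so signals were quantile scaled. Signals below 17.3, the 50th percentile of all scaled signals, were raised to that value, called the floor. Mmp2 itself, which checks the genotype labels, had scaled signals of 976 and 798 in mdx and of 24.5 and 40.6 in the null. Dmd, mutated in all 4 groups, had signals between 113 and 152. All 10 skeletal muscle markers, such as the fast muscle genes Tnnt3 and Ckm, were above the floor in all 4 arrays, with summed signals between 115600 and 120300. For Actb, probe sets at the 3' and 5' ends report on RNA integrity, and their ratio was 1.19 and 1.046 at 1 month and 2.36 and 2.09 at 3 months, in mdx and the null, respectively. The same ratio for Gapdh changed little, with 0.883 and 0.85 at 1 month and 0.936 and 0.935 at 3 months.

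Of the 10 genes, 7 were above the floor in mdx at 1 month, 6 in the null at 1 month, 3 in mdx at 3 months and 7 in the null at 3 months. Over all 18193 genes, 63.9% to 64.6% were above it in each array. S100a8, S100a9 and Ngp were above it in all 4 arrays, and Ltf and Cxcr2 in none. In muscle, fewer neutrophils and less RNA per neutrophil cannot be told apart.

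S100a8 had scaled signals of 58.9 in mdx and 74.0 in the null at 1 month, and of 35.6 in mdx and 340.1 in the null at 3 months. The null at 3 months stood far above the other 3 arrays, and mdx at 3 months was the lowest. In the order of signals within its array, S100a8 lay at the 62.7th percentile in mdx at 3 months and at the 90.5th in the null. The S100a8 difference at 3 months was 9.55-fold, rank 2 from the top among the 11100 genes above the floor in both 3-month arrays.

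S100a9, the partner of S100a8 in calprotectin, had signals of 37.4 in mdx and 55.4 in the null at 1 month, and of 20.1 in mdx and 214 in the null at 3 months. Its order over the arrays was the same as that of S100a8. The difference at 3 months was 10.7-fold, rank 1 among these genes. They leave out genes with 1 array at the floor, such as Chil3, which was at least 10.7-fold higher. The S100a9 signal of 20.1 in mdx at 3 months lay near the floor of 17.3. With the floor at the 60th percentile, the log2 difference of S100a9 was 2.84 in place of 3.42. Without any scaling, the deposited signals were 17.3 and 263, or 15.2-fold apart, and those of S100a8 were 30.3 and 424, or 13.99-fold.

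At 1 month both calprotectin genes were also higher in the null, but by far less: 1.26-fold for S100a8 and 1.48-fold for S100a9. This direction held under every scaling and floor tried, with log2 differences from 0.23 to 0.46 for S100a8 and from 0.51 to 0.74 for S100a9. Of the 12801 genes above the floor in any array, the base of every later percentage of all genes, 0.57% were at least 2-fold higher in the null at 1 month, and 0 of the 10 genes were among them.

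**Figure D1:**
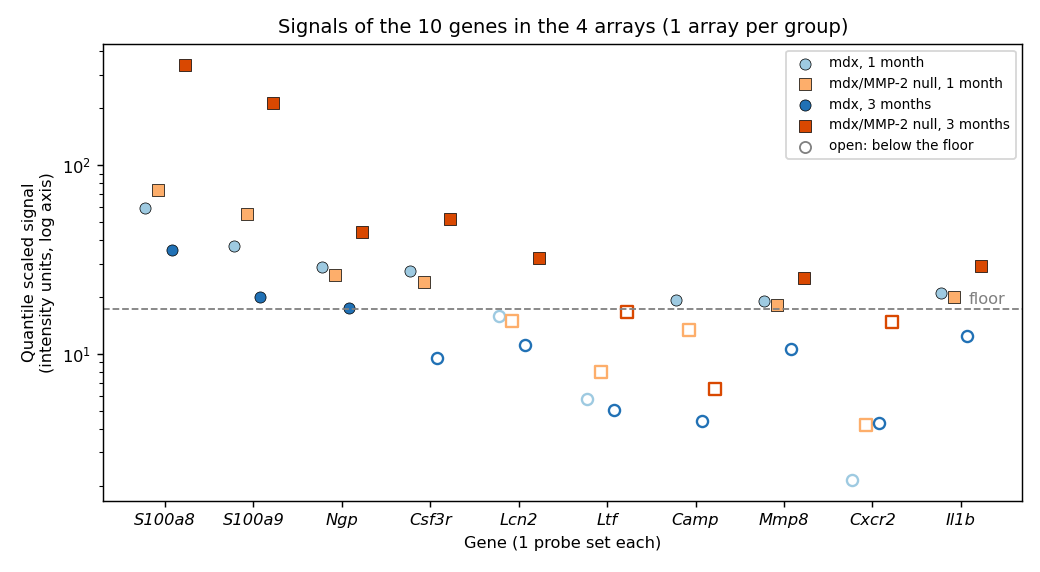
Quantile scaled signal (log axis) of each of the 10 genes in the 4 arrays; circles are mdx, squares mdx/MMP-2 null, and open symbols below the dashed floor of 17.3 have no order. S100a8 and S100a9 reach 340.1 and 214 in the null at 3 months, while Ltf and Cxcr2 are below the floor in all 4 arrays.

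Granule proteins came next. Ngp, a neutrophil granule protein related to the cathelicidins, had signals of 28.8 in mdx and 26.1 in the null at 1 month, and of 17.6 in mdx and 44.2 in the null at 3 months. Its 17.6 in mdx at 3 months lay just above the floor. The difference at 3 months was 2.51-fold, rank 22 among these genes. At 1 month the genotypes were 1.11-fold apart with the null lower, a direction that did not hold under all scalings (log2 -0.18 to 0.05).

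Lcn2 encodes lipocalin 2, a specific granule protein that withholds iron from bacteria. Its signals were 15.8 in mdx and 14.95 in the null at 1 month, 11.1 in mdx at 3 months and 32.2 in the null at 3 months. Only the null at 3 months was above the floor, and the difference at 3 months was at least 1.86-fold. Mmp8, neutrophil collagenase, had signals of 19.1, 18.0, 10.6 and 25.1 in the same order. Both 1-month arrays of Mmp8 lay just above the floor, mdx at 3 months was below it, and the null at 3 months was at least 1.45-fold higher than mdx.

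Camp, which encodes the cathelicidin antimicrobial peptide CRAMP, went another way. Its signals were 19.3 in mdx and 13.3 in the null at 1 month, and 4.39 in mdx and 6.52 in the null at 3 months. Only mdx at 1 month was above the floor, so no fold is given at 3 months, and at 1 month the null was at least 1.11-fold lower. Ltf, lactoferrin, an iron-binding protein of specific granules, was below the floor everywhere, with 16.7 in the null at 3 months and 5.04 to 8.02 in the other arrays. Camp and Ltf, stored in the same granules as Lcn2, were thus below the floor in the null at 3 months, where S100a8 and S100a9 were highest. Ltf lay just under the floor there, and its signal was higher than in the other arrays.

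Of the receptors, Csf3r binds G-CSF, the growth factor that releases neutrophils from marrow. Csf3r had signals of 27.4 in mdx and 23.9 in the null at 1 month, and of 9.48 in mdx and 51.9 in the null at 3 months. Mdx at 3 months was below the floor, and the null at 3 months was at least 2.99-fold higher. At 1 month the null was 1.15-fold lower, with log2 differences from -0.22 to 0.01 over the alternatives. Cxcr2, the receptor through which CXC chemokines guide neutrophils, was below the floor in all 4 arrays, with signals of 2.14 and 4.2 at 1 month and of 4.32 and 14.7 at 3 months, in mdx and the null.

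Il1b, the inflammatory cytokine interleukin 1 beta, made by neutrophils and macrophages, had signals of 21.1 in mdx and 20.02 in the null at 1 month. At 3 months its signals were 12.5 in mdx, below the floor, and 29.2 in the null. The null was at least 1.68-fold higher at 3 months, and at 1 month 1.05-fold lower. The 1-month difference of Il1b, like that of Mmp8 (1.06-fold lower), changed direction between scalings, with log2 ranges of -0.08 to 0.15 and -0.08 to 0.14.

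At 3 months, 4 of the 10 genes (S100a8, S100a9, Ngp and Csf3r) were at least 2-fold higher in the null, beside 1.17% of all genes. A further 3 (Lcn2, Mmp8 and Il1b) were higher by less, 3 (Ltf, Camp and Cxcr2) had no value, and 0 were at least 2-fold lower, beside 0.422% of all genes. Over the 8 genes above the floor in any array, the median log2 difference was 1.11, against 0.0 for all genes. The choice of genes used this contrast, so nothing follows from these counts. Lcn2 passed the floor only in the null at 3 months and so had to be higher there. The counts also depend on the floor: with the floor at the 60th percentile 2 genes (S100a8 and S100a9) remained at or past 2-fold, with log2 differences of 0.56 for Ngp and 0.79 for Csf3r, and at the 40th percentile 7 did.

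At 1 month, S100a8 and S100a9 were higher in the null and Ngp, Csf3r, Camp, Mmp8 and Il1b lower, with a median of -0.08 over the 8 genes. None of these reached 2-fold in either direction, and 0.57% of all genes were at least 2-fold lower. The genotype difference at 3 months exceeded that at 1 month for all 8 genes above the floor in any array, beside 50.5% of all genes, by log2 values of 2.93 for S100a8, 2.85 for S100a9, 1.78 for Csf3r and 1.48 for Ngp. The other 4 were below 1, from 0.16 for Camp to 0.89 for Lcn2, with signals below the floor set to it. On this measure 2.89% of all genes were 1 or higher and 1.69% were -1 or lower. Lcn2 passed the floor only in the null at 3 months and Camp only in mdx at 1 month. The sign of both on this measure was therefore fixed, as was the lower value of Camp in the null at 1 month. The choice of genes used the 3-month difference, so nothing follows from these counts.

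**Figure D2:**
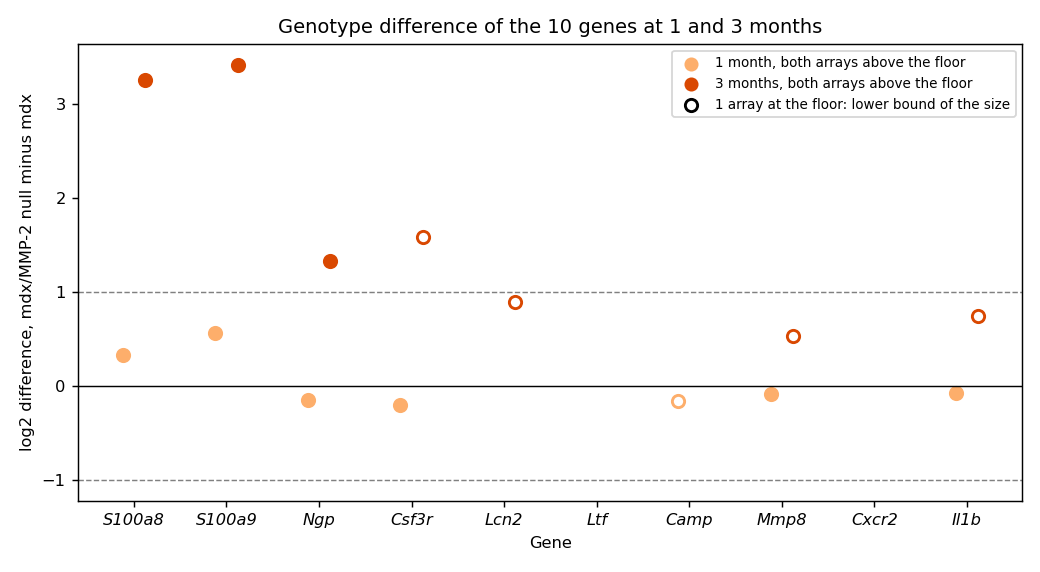
Log2 difference, mdx/MMP-2 null minus mdx, for each gene at 1 month (light) and 3 months (dark); dashed lines mark 2-fold, open points are lower bounds because 1 array was at the floor, and genes with both arrays at the floor have no point. At 3 months S100a8 and S100a9 lie at 3.26 and 3.42, and at 1 month at 0.33 and 0.57.

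The age differences share arrays with the genotype differences and are given for each genotype on its own. In the null, 7 of the 8 genes above the floor in any array were higher at 3 months than at 1 month, beside 50.05% of all genes. Of the 8, 0 were at least 2-fold lower, beside 1.21%. Lcn2 passed the floor only in the null at 3 months and so had to be higher there. The genes were chosen for high S100a8 and S100a9 in that array, so nothing follows from this count. S100a8 was 4.6-fold, S100a9 3.87-fold and Csf3r 2.17-fold higher, beside 1.47% of all genes that were at least 2-fold higher. Ngp was 1.7-fold, Lcn2 at least 1.86-fold, Il1b 1.46-fold and Mmp8 1.39-fold higher. Csf3r fell short of 2-fold with 2% trimmed mean scaling (log2 0.92), the floor at the 60th percentile (0.79) or a pseudocount (0.99), which left 2 genes at or past 2-fold.

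In mdx, 7 of the 8 genes above the floor in any array were lower at 3 months than at 1 month, beside 47.7% of all genes. Of the 8, 0 were higher, beside 47.99%. Camp passed the floor only in mdx at 1 month and so had to be lower at 3 months. The mdx array at 3 months is part of the contrast used to choose the genes, so nothing follows from these counts. S100a9 was 1.86-fold, S100a8 1.66-fold, Ngp 1.64-fold and Csf3r at least 1.58-fold lower. Il1b was at least 1.22-fold, Camp at least 1.11-fold and Mmp8 at least 1.1-fold lower. None of the 10 genes was at least 2-fold lower, beside 1.54% of all genes, or at least 2-fold higher, beside 0.969%. The median over the 8 genes was -0.47 in mdx and 0.83 in the null, against 0.0 for all genes in both. The Actb 3'/5' ratio was higher at 3 months in both genotypes, while that of Gapdh was between 0.85 and 0.94 in all 4 arrays. The part of RNA integrity in these differences was not tested.

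Mdx at 3 months held the lowest value, or one tied at the floor, for 8 of the 8 genes above the floor in any array, beside 30.9% of all genes. The null at 3 months held the highest value for 7 of them (all but Camp), beside 26.3% of all genes. Lcn2 passed the floor only there and Camp only in mdx at 1 month, so the highest array of both was fixed. The choice of genes used high signals in the null at 3 months, so nothing follows from these counts. In the deposited signals without scaling, mdx at 3 months was lowest for 9 of the 10 genes and the null at 3 months highest for 9. A difference between the genotypes at 3 months therefore sets the highest array against the lowest.

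Other neutrophil genes were read from lists, made with results of these arrays known. Of all genes, 47.6% were higher and 48.1% lower in the null at 3 months, and each list is counted over its genes above the floor in any array. Chil3 is in the specific and tertiary granule list and the monocyte list, and Ppbp in the recruiting and platelet lists. Among primary granule genes, made by neutrophil precursors in marrow, Elane, Ctsg and Fcnb were at the floor in all 4 arrays. Mpo, myeloperoxidase, had signals of 6.35 and 7.95 at 1 month, 23.7 in mdx and 11.7 in the null at 3 months. Prtn3, proteinase 3, was likewise above the floor only in mdx at 3 months (24.4 against 5.65 in the null). Ms4a3 was above the floor only at 3 months, with 20.2 in the null and 17.4 in mdx, both near it. Serpinb1a, in this list only as an inhibitor of these proteases, was above the floor in all 4 arrays. It was 2.22-fold higher in the null at 3 months (702 against 316), and at 1 month had 425 in the null and 487 in mdx. Of the 4 genes above the floor in any array, 2 were higher and 2 lower in the null at 3 months. The median was -0.11 against 0.0 for all genes (without scaling 0.09, against 0.41 for all genes). The 2 lower genes, Mpo and Prtn3, passed the floor only in mdx at 3 months and so had to be lower in the null. Nothing follows from this count or median.

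Of the other specific and tertiary granule genes, 6 of 7 were higher in the null at 3 months, with a median of 0.29. Chil3 and Slpi were above the floor only in the null, at both ages, and so could not be lower in it. Chil3, a chitinase-like protein of neutrophils, monocytes and macrophages, was at least 10.7-fold higher (186 against 16.8), with 32.9 in the null and 14.4 in mdx at 1 month. Hp, haptoglobin, which binds free haemoglobin, was 2.97-fold higher (169 against 57.1). Lrg1 had 112 against 74.8, and Anxa3, an annexin, 243 against 236. Pglyrp1, Olfm4, Cd177 and Itgb2l were at the floor in all 4 arrays.

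Of the genes of the mature neutrophil surface and cytosol, 12 of 15 were higher in the null at 3 months and 3 lower, with a median of 0.73. Clec4d, a C-type lectin of myeloid cells, was 2.56-fold higher (187 against 72.9), and Fpr2, a formyl peptide receptor that senses bacterial and mitochondrial peptides, at least 2.37-fold (41.0 against 11.4). Itgb2, the shared beta chain of leukocyte integrins, was 1.7-fold higher (232 against 137). G0s2, an inhibitor of lipolysis that muscle and fat also express, was 2.01-fold lower (125 against 250.3). Wfdc21 was 1.002-fold and Padi4 1.012-fold lower. Under median and loess scaling and without scaling, 14 genes were higher and 1 lower, and under trimmed mean scaling 13 and 2. Of the 26 genes of this list, 7, among them Ly6g and Retnlg, had no probe set of their own in the annotation used. Of the 15, 6 (Trem1, Trem3, Clec4e, Mcemp1, Hdc and Ltb4r1) passed the floor only in the null at 3 months and so had to be higher there; of the other 9, 6 were higher and 3 lower.

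Signals that recruit neutrophils were higher in the null at 3 months for 7 of 7 genes above the floor, with a median of 0.51. Of these, 3 (Cxcl5, Il6 and Ccl3) passed the floor only in that array and so had to be higher. Ppbp was above the floor only in the null, at both ages, and so could not be lower in it. Cxcl5, a ligand of Cxcr2, had 75.6 in the null at 3 months and at most 8.2 in the other arrays, and was at least 4.36-fold higher than in mdx. Cxcl1, a further Cxcr2 ligand, was 1.59-fold higher (94.5 against 59.6). Selp and Icam1, adhesion molecules of vessel walls, were 1.43-fold (46.8 against 32.7) and 1.41-fold higher (88.0 against 62.3). At 1 month, Cxcl1 had 49.7 in the null and 65.9 in mdx, and Selp 35.2 and 47.1. Cxcl2, Cxcl3, Csf3, Csf2, Il17a, Tnf and Sele were at the floor in all 4 arrays.

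Of the genes of interleukin 1 and calprotectin receptor signalling, 16 of 21 were higher in the null at 3 months and 3 lower, with a median of 0.45. Il1r1, the signalling receptor of interleukin 1, was at least 3.22-fold higher (55.8 against 11.9), although at 1 month it was at least 1.58-fold lower (9.32 against 27.5). Cd14 and Pycard, a co-receptor of TLR4 and an inflammasome adaptor, were 1.66-fold (161 against 97.1) and 1.63-fold higher (173 against 106). Tlr4 itself had 91.9 against 69.0, and Ager, which encodes RAGE, was at the floor in both 3-month arrays. Nfkbia, an inhibitor of NF-kB, had 2944 against 2553. Il1r2, the decoy receptor, counts in this list and in the one before the recruiting signals.

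Of the other S100 genes, 6 of 7 were higher in the null at 3 months, with a median of 0.38. S100a4, made by fibroblasts and leukocytes, was 2.26-fold higher (2228 against 985), and S100a6 1.57-fold (2641 against 1678). S100a1, which is made in striated muscle fibres, had 1660 against 1702. Among granulocyte transcription factors, 8 of 8 were higher, with a median of 0.47. Spi1, which encodes PU.1, was 2.06-fold higher (60.01 against 29.1), but at 1 month 2.52-fold lower (21.3 against 53.6). Cebpb had 3612 against 2836, Cebpd 1024 against 675 and Klf5 258 against 243, while Gfi1 and Myb were at the floor in all 4 arrays.

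Markers of other myeloid cells were higher in the null at 3 months as well. All 13 macrophage markers were higher, with a median of 0.49 and summed signals of 10520 in the null against 7141 in mdx. At 1 month the sums were 9478 and 10030. The 4 monocyte markers were higher too (median 0.99), with sums of 1393 in the null and 692.5 in mdx at 3 months, and of 952 and 820.1 at 1 month. Ccr2, the receptor that brings monocytes into tissue, had 249 against 109. Platelet markers had a median of 0.93 over 3 genes (sums of 1009 and 505 at 3 months, 635 and 601 at 1 month), led by Itga2b, at least 2.32-fold higher. Chil3 and Ppbp, counted in the monocyte and platelet lists, were above the floor only in the null. They could not be lower in it. The part of monocytes, macrophages and platelets in the S100a8 and S100a9 difference was not tested.

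Markers of other cells gave low or unlike values. Keratinocytes also make S100a8 and S100a9, and their markers Krt14 and Krt1 were at the floor in all 4 arrays. The summed signal of the 6 keratinocyte markers was 159 in the null and 196 in mdx at 3 months, and 165 and 202 at 1 month. In mdx and the null, 3 and 2 of the 6 were above the floor at 1 month, and 4 and 3 at 3 months. At 3 months Sprr1a was higher in the null (27.5 against 24.5), and Krt10 (89.2 against 103), Lor (24.8 against 27.2) and Krt5 (15.4, below the floor, against 18.6) were lower. T cell (Cd3e, Cd3d, Cd3g, Cd4), B cell (Ms4a1, Cd79a, Pax5), NK cell (Ncr1, Nkg7) and eosinophil markers (Epx, Prg2, Ccr3, Il5ra) were at the floor in all 4 arrays, with sums of 26.9 to 70.2 per list and array. Above the floor in any array were 1 of 5 T cell markers (Cd8a, 30.9 in the null against 25.2 in mdx at 3 months), 1 of 4 B cell markers (Cd79b, above it only in the null at 3 months, at 18.6) and 1 of 5 eosinophil markers (Siglecf, likewise, at 17.55). The 2 of 4 NK cell markers above it were Prf1 (23.3 against 19.99) and Gzma (17.9 against 19.1). Red cell sums were 40.5 to 53.3, with Hba-a1, Slc4a1 and Epb42 at the floor. Mast cell markers (sums of 333 to 388) had a median of -0.14 at 3 months and endothelial markers -0.24 (835 against 879), which without scaling were 0.33 and 0.23, against 0.41 for all genes. Of the 10 skeletal muscle markers, 1 was higher and 7 lower in the null at 3 months (median -0.05). All 10 were lower under median, loess and trimmed mean scaling (medians of -0.30, -0.17 and -0.36), and without scaling 8 were higher and 2 lower (median 0.08). The part of these cells in the S100a8 and S100a9 difference was not tested.

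**Figure D3:**
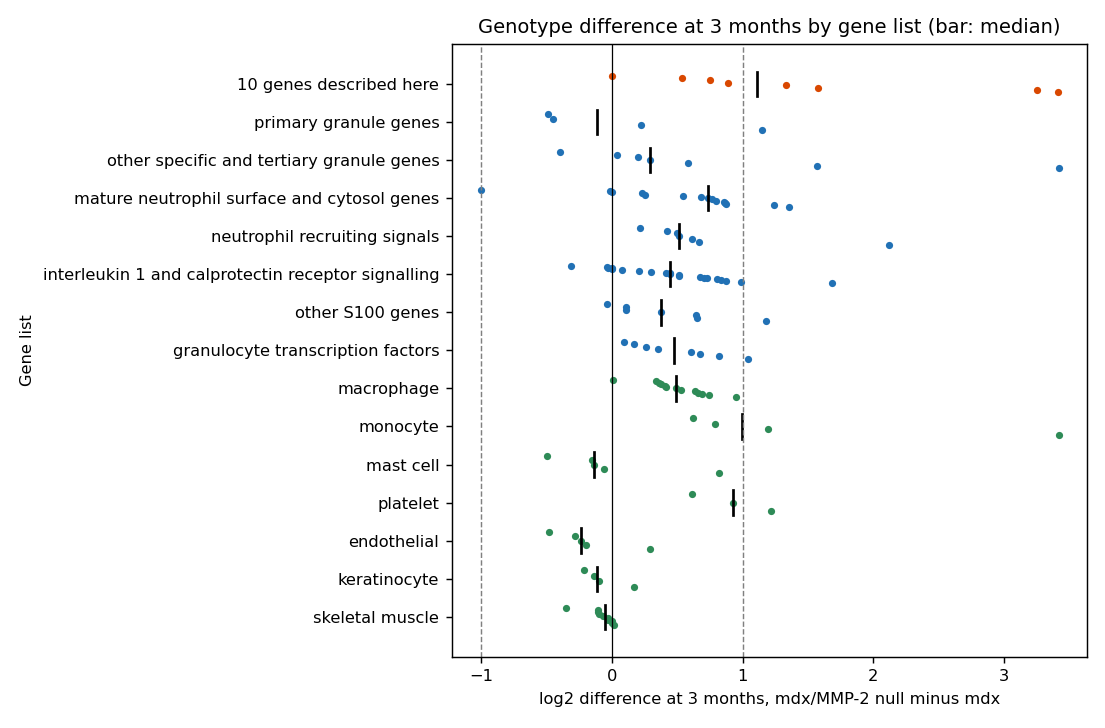
Log2 difference at 3 months, mdx/MMP-2 null minus mdx, for each gene above the floor in any array, by list (orange, the 10 genes; blue, related genes; green, cell type markers); black bars are medians, dashed lines mark 2-fold, and genes at the floor in both 3-month arrays are drawn at 0. Medians run from -0.24 (endothelial) to 0.99 (monocyte) and stand at 1.11 for the genes chosen on this contrast.

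The neutrophil name rests on few measured genes. Camp, Ltf and Cxcr2 were below the floor in the null at 3 months, where S100a8 and S100a9 were highest. Ltf (16.7) and Cxcr2 (14.7) lay not far below the floor of 17.3. The primary granule genes Elane, Ctsg and Mpo, made by precursors in marrow, were below it too. So were Prtn3 and Fcnb of that list, while Ms4a3 (20.2) and Serpinb1a (702) were above it. Ngp, Csf3r, Lcn2 and Mmp8 were between 25.1 and 51.9. Of the 15 measured genes of the mature neutrophil surface and cytosol, 12 were higher than in mdx and 3 lower. Among the lower genes, Wfdc21 (1.002-fold) and Padi4 (1.012-fold) were nearly level. Of the 12, 6 passed the floor only in the null at 3 months and so had to be higher. Ly6g and Retnlg had no probe set of their own in the annotation used. The values are therefore given for the genes and not for a cell type.

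Of 7605 other named genes with a top signal of at least 84.8 (the 75th percentile), the 8 nearest in pattern to the mean of S100a8 and S100a9 were Slfn4, Chil3, Ccr1, Ccl7, Timp1, Ccl2, Mt1 and Ccn5. Nearness was the root mean square distance between log2 signals, each centred on its own mean, over the 4 arrays. It was 0.28 for Slfn4, a gene of myeloid cells, 0.35 for Chil3 and 0.47 for Ccr1, a chemokine receptor of monocytes and neutrophils, and between 0.54 and 0.68 for the other 5. The listed partners had distances from 0.69 for Csf3r and 0.8 for Ngp to 1.25 for Camp, where the floor compresses their range. The 8 genes were the nearest of 7605 and had to reach 84.8, which no partner did, so nothing follows from this comparison.

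Slfn4 had signals of 21.4 and 33.9 at 1 month and of 16.9 and 102 at 3 months, in mdx and the null. Ccr1 had 40.3 and 61.3, then 46.7 and 202, and its other probe set was below the floor in all 4 arrays. Ccl7 had 52.6 and 44.2, then 23.3 and 111. Timp1, an inhibitor of metalloproteinases, had 432 and 350, then 283 and 1008. For Slfn4 and Ccr1, as for both calprotectin genes, the null was higher at 1 month too, while for Ccl7 and Timp1 it was lower there. Ccl2, a chemokine for monocytes, had 55.6 and 51.6, then 56.7 and 175, and Ccn5, a matricellular protein, 31.8 and 34.1, then 32.3 and 88.4. Mt1, a metallothionein that binds zinc, had 2927 and 2934, then 2602 and 7602. The other probe set of Mt1 had 51.6 in the null and 32.1 in mdx at 3 months.

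**Figure D4:**
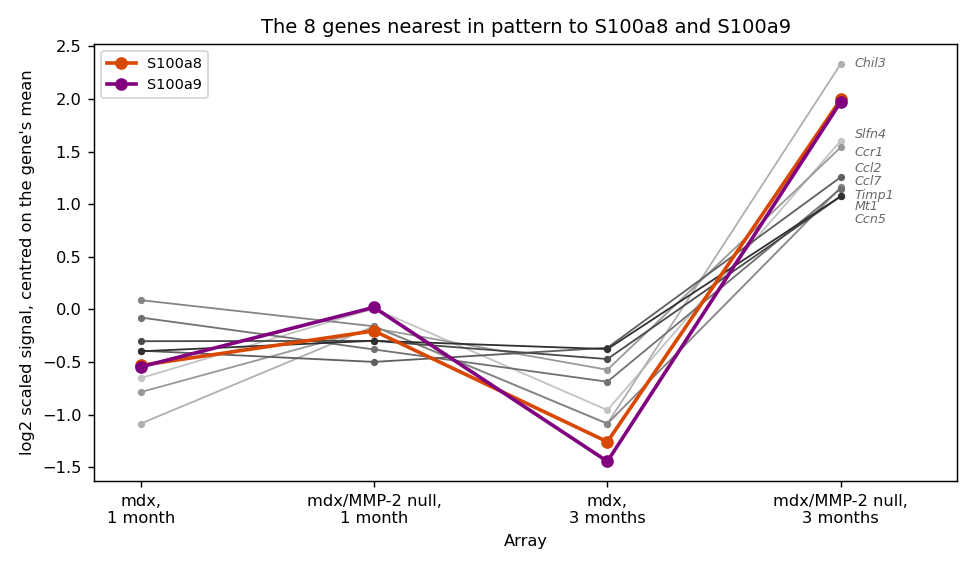
Log2 scaled signal, centred on each gene's mean over the 4 arrays, for S100a8 and S100a9 (coloured) and the 8 genes nearest in pattern (grey, darker with distance); the lines join single arrays and show no time course. All are highest in the null at 3 months, and S100a8 and S100a9 are lowest in mdx at 3 months. The 8 genes were chosen for this pattern, so nothing follows from their high signal there.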

How the data were processed

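Total RNA of tibialis anterior was measured on 4 arrays, 1 per group, with groups from the sample labels. The authors deposited 1 linear intensity per probe set and array. The submitters' processing notes name MAS5 and Affymetrix Expression Console. The sources used here give no version or scaling target.

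All 45037 non-control probe sets of 45101 were quantile normalized with R 4.3.3 and limma 3.58.1. Signals below 17.3 (50th percentile) were raised to it before log2. Of these probe sets, 34945 had 1 gene symbol, 932 several and 9160 none here; 34741 of them matched RefSeq's mouse genes by identifier, with 0 changes of symbol. A gene was represented by the probe set whose mean log2 signal was highest, and 12801 of 18193 genes exceeded the floor in any array. Where 1 of 2 arrays lay at the floor the fold is a lower bound, and with both there no fold is given. A median over a list takes genes with both arrays at the floor as 0.

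With 1 array per group there is no test, and precision is limited by this number. Genes at or past 2-fold were counted. Probe sets of different genes were not set against each other. Members and lists were chosen with earlier results of these data known. Named were all 10 genes, Mmp2, Dmd, of each list of related genes the 3 with the highest mean signal and those past 2-fold at 3 months, and the 8 genes nearest in pattern, with predicted genes passed over. List genes at the floor, cell type markers and Tlr4, Ager and others named beyond this were named after their values were seen. The NF-kB letters were shortened after a longer form had been searched. Alternatives were median, cyclic loess, 2% trimmed mean and no scaling, a higher (60th percentile) and a lower floor (40th), a pseudocount of 4.33 without floor, the mean of a gene's probe sets, no _x_at or _s_at probe sets, and 3-fold. The steps were tested on simulated data with numpy 2.4.6 and pandas 2.3.3 under Python 3.11.15. Figures were drawn with matplotlib 3.10.9.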

Additional observations from a re-analysis of the deposited data

Results flagged for a closer look

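For 6 of the genes the age difference (3 months minus 1 month, log2) had opposite signs in the genotypes. It was 2.20 in the null and -0.73 in mdx for S100a8, 1.95 and -0.90 for S100a9, and 1.12 and -0.66 for Csf3r. It was 0.76 and -0.71 for Ngp, 0.54 and -0.28 for Il1b, and 0.48 and -0.14 for Mmp8. With 1 array per group, these differences between genotypes were not tested.

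For 4 of these genes the genotype difference (null minus mdx, log2) also had opposite signs at the ages. It was 1.33 at 3 months and -0.15 at 1 month for Ngp, 1.58 and -0.20 for Csf3r, 0.53 and -0.083 for Mmp8, and 0.75 and -0.076 for Il1b. The values at 1 month changed sign under at least 1 other scaling, and the difference between the ages was not tested.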

How the results depend on the processing

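No paired analysis was possible because each group has 1 array. Taking the mean of a gene's probe sets could change none of the 10 genes, which have 1 probe set each. Under the other alternatives, of 130 recomputed counts and medians over the genes, 121 stayed within 1.5 times the reported count or within 0.58 of the reported log2 median. The 9 others were counts. The genes at least 2-fold higher in the null at 3 months were 2 with the floor at the 60th percentile, 7 at the 40th, and 2 past a 3-fold threshold, in place of 4. The genes whose genotype difference grew by 2-fold or more from 1 to 3 months were 2 with the floor at the 60th percentile, 7 at the 40th and 7 with a pseudocount, in place of 4. The genes at least 2-fold lower at 3 months in mdx were 1 without scaling (S100a9, log2 -1.01), 1 with the floor at the 40th percentile (Csf3r, -1.31) and 2 with a pseudocount (Csf3r, -1.20, and Camp, -1.44), in place of 0. All genes but S100a8, S100a9 and Ngp were below the floor in at least 1 array.

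The S100a8 difference at 3 months ranged from 3.11 to 3.81 on the log2 scale and that of S100a9 from 2.84 to 3.92 over the alternatives. S100a8 has only an _s_at probe set, so it has no value without those. Leaving signals unscaled moved the median of all genes by 0.41 at 3 months, 0.26 for age in the null and 0.31 for the change of the genotype difference. Median scaling moved it by -0.10 at 1 month, 0.19 for age in the null and 0.16 for that change. Signal over background, and not the number of genes, limits Ltf, Cxcr2, Camp, Lcn2, Mmp8 and Il1b.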
